A study of Homo sapiens with 12 samples.

Results

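The USP genes encode ubiquitin-specific proteases, and this account follows the m6A windows listed on their transcripts after knockout of METTL16 in a leukaemia line. Members were all genes in the authors' deposited tables whose name begins with USP followed by a digit, a rule that uses no measured value. It found 54 of the 16417 gene names listed. Of these, 46 are USP proteases by name. The other 8 are USP6NL, a Rab GTPase-activating protein, the pseudogene USP32P1 and 6 antisense RNAs, all of which stay in the counts. All 4 tables listed 49 of the 54.

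N6-methyladenosine (m6A) was mapped on poly(A) RNA of NOMO-1, an acute myeloid leukaemia cell line, with lentiviral guide sgMETTL16-1, lentiviral guide sgMETTL16-2 or the control guide sgNS. All infected cells, the controls included, were kept in puromycin at 2 µg/ml for 1 to 2 weeks, with no other treatment, and the labels name no single clone. The 12 libraries were 2 input and 2 immunoprecipitated (IP) ones for each guide. The series set out to measure the methyltransferase activity of METTL16. The deposited data are 4 tables of comparisons made by the authors, 1 for each METTL16 guide and replicate number against sgNS.

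Each row of those tables is a window of a transcript. It carries the fold by which IP exceeded input and, on the log2 scale, how that enrichment differed between knockout and sgNS. The tables hold no value per library, so depth is unknown and the spread between replicates cannot be given. The labels do not say whether the replicates were separate cultures. Which sgNS libraries entered which table is not given, and tables of 1 number may share them. Values below 0 are taken to mean less m6A in the knockout. The tables do not state their sign, and all directions given here reverse if it runs the other way. "Called" means an FDR of the difference under 0.05 in the authors' deposited table, "enriched" an FDR of IP over input under 0.05. METTL16 itself had between 5 and 7 windows per table and no call, with 0.133 as its lowest FDR in the authors' deposited tables. The windows measure methylation relative to input and so do not show whether METTL16 was lost.

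Ubiquitin-specific proteases are cysteine proteases that cut ubiquitin from proteins or trim ubiquitin chains, and so oppose the ubiquitin ligases. They form the largest family of human deubiquitinases, with members that act on histones, on DNA repair factors, on p53 and its ligase MDM2, on endosomal cargo and at the proteasome. Most m6A of messenger RNA is written by METTL3 with METTL14. METTL16 is a separate methyltransferase best known for acting on U6 small nuclear RNA and on MAT2A messenger RNA.

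USP windows with a call were few and lay mainly in 1 table. With sgMETTL16-1, replicate 1 of the authors' deposited tables called 1 of 413 USP windows lower and 0 higher, while 0.281% of all windows were called lower and 0.0743% higher, 0.355% in either direction. Replicate 2 of that guide called 1 of 333 lower and 1 higher in the authors' deposited table, beside 0.167% and 0.583% of all windows, 0.749% in either direction. With sgMETTL16-2, replicate 1 of the authors' deposited tables called 9 of 369 lower (2.44%) and 2 higher (0.542%), beside 0.965% and 0.875% of all windows, 1.84% in either direction. Replicate 2 of that guide called 0 of 300 USP windows by the authors' FDR, beside 0.149% lower and 0.586% higher among all windows, 0.734% in either direction. At an unadjusted p under 0.05 the authors' deposited table of that replicate had 9 USP windows lower and 8 higher, 5.67% of them, beside 6.15% of all windows. The sgMETTL16-2 replicate 1 table thus held 11 of the 14 USP calls. There the share of lower calls was above that of all windows, a difference that was not tested against chance.

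The 14 calls, 11 lower and 3 higher, fell on 9 genes: USP1, USP8, USP9X, USP10, USP16, USP22, USP34, USP47 and USP48. The other 45 members had no call in any table. The share of all genes called in at least 1 table is not given here, so the 9 cannot be called many or few. Of the called windows 9 were enriched and 5 were not. The same split over all called windows is not given here. When the deposited p-values were read as one-sided, made two-sided and adjusted by Benjamini-Hochberg, 5 calls of sgMETTL16-2, replicate 1, were lost. They were USP16, USP48, USP9X, the higher USP22 window and 1 of the USP8 windows, at adjusted p-values between 0.0514 and 0.117. Benjamini-Hochberg adjustment of the deposited p-values was enough to lose USP16 and USP9X. By gene, the authors' deposited tables called 1 of 51 (sgMETTL16-1, replicate 1), 1 of 52 (replicate 2), 9 of 53 (sgMETTL16-2, replicate 1) and 0 of 53 (replicate 2). The same shares over all genes were 1.74%, 3.22%, 7.72% and 3.14%. USP genes had a median of 6 or 7 windows per table, beside 4 for all genes. Whether the number of windows bears on the share of genes called was not tested. By window, sgMETTL16-2, replicate 1, called 2.98% of USP windows, beside 1.84% of all windows. No USP window had the same call in both replicate tables of either guide. That was 0 of the 91 USP windows matched between the sgMETTL16-1 tables, beside 0.0649% of all matched windows, and 0 of 82 for sgMETTL16-2, beside 0.59%.

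The whole set of USP windows moved little. By the authors' deposited tables, USP windows had a median log2 fold change of 0.00 and -0.05 with sgMETTL16-1 and of -0.22 and -0.13 with sgMETTL16-2 (replicates 1 and 2), while that of all windows was 0.00 in every table. Values were below 0 in 48.2% and 52% of USP windows in the sgMETTL16-1 tables, beside 46.9% and 46.5% of all windows. In the sgMETTL16-2 tables they were below 0 in 56.9% and 58%, beside 48.5% and 46.1%. IP signal was weak in many of them: the authors' FDR of IP over input was 1 for between 41.3% and 48.8% of USP windows.

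**Figure D1:**
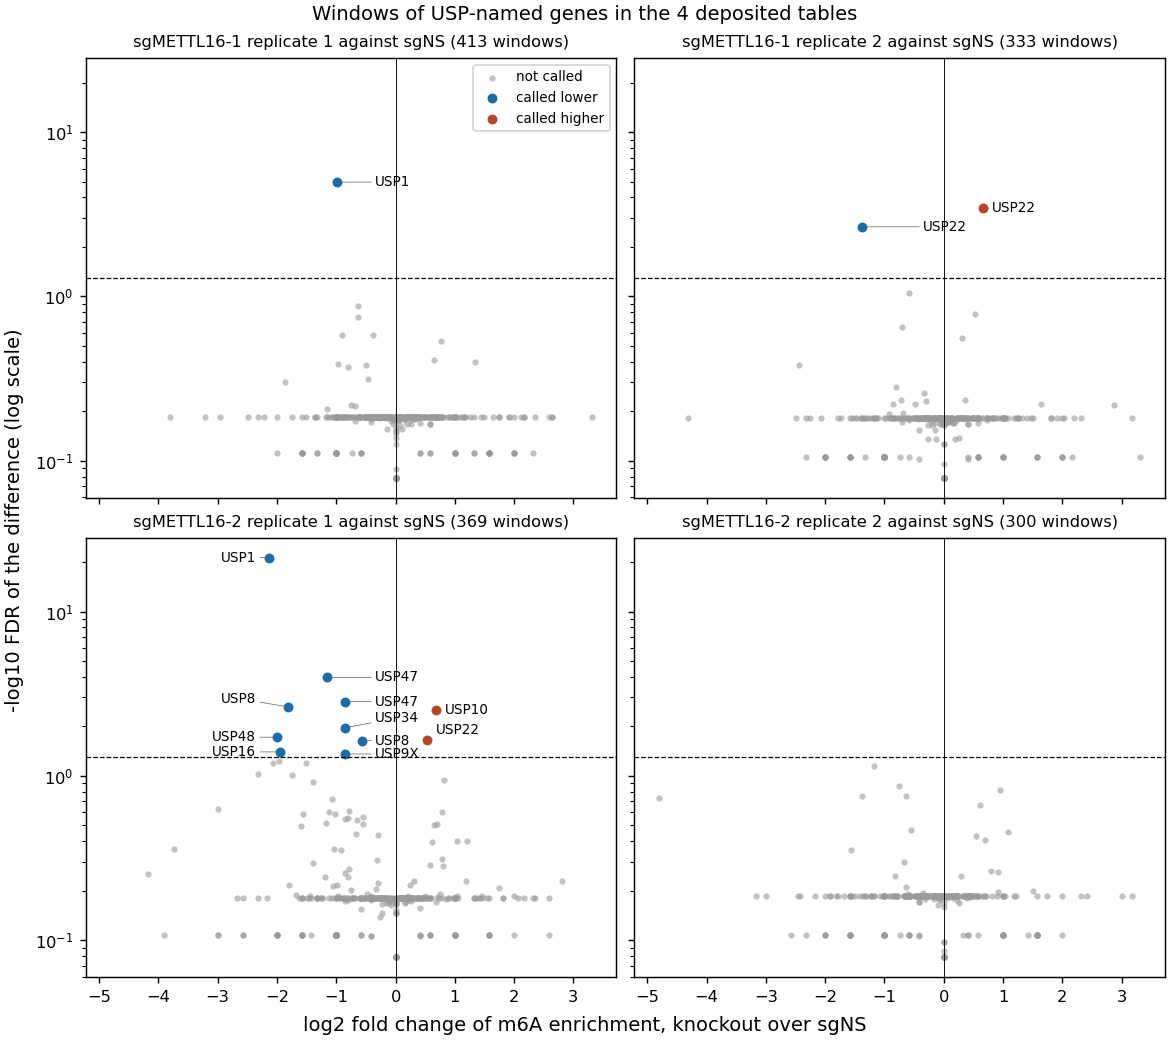
Each point is 1 window of a USP-named gene, with the log2 fold change (knockout over sgNS) across and the -log10 FDR of the difference upward on a log scale, 1 panel per table and the dashed line at an FDR of 0.05. Blue points were called lower and red points higher: 1 in the sgMETTL16-1 replicate 1 table, 2 in replicate 2, 11 in the sgMETTL16-2 replicate 1 table and 0 in replicate 2, with the USP1 window of sgMETTL16-2 the farthest up.

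Among the genes of DNA repair, USP1 had the lowest FDR of the family. USP1 acts with its cofactor WDR48 to remove ubiquitin from FANCD2 and PCNA. Its called window lies at chromosome 1, 62444812 to 62445172 (GRCh38, plus strand), a single block of 361 bases about the middle of the gene, which runs from 62436395 to 62451804. The window starts 8417 bases after the annotated 5′ end and ends 6632 bases before the 3′ end. In the authors' deposited table of sgMETTL16-1, replicate 1, it had a log2 fold change of -0.99 with an FDR of 1.10e-05, and a fold enrichment of 1.64 (FDR of IP over input 6.92e-06). The authors' deposited table of sgMETTL16-2, replicate 1, listed it from 62444812 to 62445262, at -2.13 with an FDR of 5.01e-22, the 16th lowest FDR of its 75788 windows. There the fold enrichment was 1.35 with an FDR of 0.0832, so the window was called different without being enriched. Neither replicate 2 table listed a window over it. The nearest one, 62445322 to 62445382 in the authors' deposited table of sgMETTL16-1, replicate 2, had a log2 fold change of -0.92 with an FDR of 0.641. USP1 was thus called lower with both guides in the replicate 1 tables and could not be compared in the replicate 2 tables, where it had 5 windows and 1. Its other windows in the replicate 1 tables ranged from -0.46 to 0.40 with sgMETTL16-1 and from -0.87 to 0.52 with sgMETTL16-2, none called by the authors' FDR.

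USP47, which deubiquitinates the repair enzyme DNA polymerase beta, was called lower at 2 places in 1 table. The first, chromosome 11, 11942427 to 11947947 on the plus strand, has 2 blocks and 689 bases. Its log2 fold changes, by the authors' deposited tables, were -0.08 and -0.11 with sgMETTL16-1 (replicates 1 and 2), and -0.85 and -0.02 with sgMETTL16-2, of which -0.85 was called (FDR = 0.00148). The second, 11955142 to 11956545, ends 5342 bases before the 3′ end of the gene. It stood at -0.63 and -0.26 (sgMETTL16-1) and -1.16 and -0.61 (sgMETTL16-2) by the authors' deposited tables, of which -1.16 was called (FDR = 0.000107). Both places were enriched in all 4 tables, and only sgMETTL16-2, replicate 1, gave a call at either.

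USP48, reported to act on ubiquitinated histone H2A near DNA breaks, was called lower on 61 bases split over 2 blocks (chromosome 1, 21748265 to 21751560). The authors' deposited table of sgMETTL16-2, replicate 1, gave -2.0 with an FDR of 0.0191, and that of sgMETTL16-1, replicate 1, gave -0.91 with an FDR of 0.263 for an overlapping window. The window was enriched in neither table, and the replicate 2 tables listed none over it. All 8 genes of the DNA damage list (USP1, USP11, USP24, USP28, USP45, USP47, USP48 and USP51) were listed in every table. Of them 3 had a call with sgMETTL16-2, replicate 1, 1 with sgMETTL16-1, replicate 1, and 0 in either replicate 2 table by the authors' FDR. Of all genes 7.72% and 1.74% had a call in those replicate 1 tables, and 3.22% (sgMETTL16-1) and 3.14% (sgMETTL16-2) in the replicate 2 tables. The list's median log2 fold change in the authors' deposited tables was -0.06 and -0.10 with sgMETTL16-1, and -0.40 and -0.10 with sgMETTL16-2, beside 0.00 over all windows. Like the other role lists, it was written with earlier results of these data known, and these differences were not tested.

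USP22, the deubiquitinase of the SAGA transcription complex that removes ubiquitin from histone H2B, was called in both directions at different places. Near its 3′ end it was called higher in 2 tables. That window lies at chromosome 17, 21002472 to 21004230 on the minus strand in the authors' deposited table of sgMETTL16-1, replicate 2, and ends 2876 bases before the annotated 3′ end. Its log2 fold changes, by the authors' deposited tables, were 0.32 and 0.67 with sgMETTL16-1, and 0.53 and 0.07 with sgMETTL16-2. The 0.67 (FDR = 0.000372) and the 0.53 (FDR = 0.0219) were called by the authors, the 0.32 (FDR = 0.655) and the 0.07 (FDR = 0.65) were not. Against the median of all enriched windows in its table, 0.14, the 0.07 was lower. The call of sgMETTL16-2, replicate 1, was lost with two-sided p-values alone, at an adjusted value of 0.0595. When that table was also shifted by its own such median, 0.12, the window stood at 0.40 with an adjusted value of 0.358. The window was enriched in all 4 tables, at a fold enrichment between 1.59 and 1.88 by the authors' deposited tables.

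The other USP22 window, 21015803 to 21018025, covers 181 bases in 2 blocks and lies 16207 bases before the 3′ end. It was called lower in the authors' deposited table of sgMETTL16-1, replicate 2, at -1.37 with an FDR of 0.00224, and was not enriched there. With sgMETTL16-2, replicate 2, an overlapping window stood at -1.17 with an FDR of 0.0708 by the authors' deposited table, enriched but not called. The replicate 1 tables listed no window over it.

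USP16, a histone H2A deubiquitinase needed in mitosis, was called lower on chromosome 21, 29043515 to 29046881 (plus strand, 2 blocks, 300 bases). The authors' deposited table of sgMETTL16-2, replicate 1, gave -1.95 with an FDR of 0.0398, close to the threshold, and that of sgMETTL16-1, replicate 1, gave -0.96 with an FDR of 0.411. It was enriched in neither, and the replicate 2 tables listed no window there. With two-sided p-values adjusted by Benjamini-Hochberg the adjusted value was 0.106, and the call was lost. That adjustment of the deposited p-values lost it too. Of the 10 genes on the chromatin list, none but USP16 and USP22 was called. With sgMETTL16-1 that was 0 of 10 listed genes in replicate 1 and 1 of 9 in replicate 2. With sgMETTL16-2 it was 2 of 9 and 0 of 10. The shares over all genes in the same order were 1.74%, 3.22%, 7.72% and 3.14%. USP3 and USP21, which also act on histone H2A, USP7, USP36 and USP49 had enriched windows without a call. The list's median log2 fold changes were, by the authors' deposited tables, -0.08 and 0.04 with sgMETTL16-1, and -0.09 in both sgMETTL16-2 tables.

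**Figure D2:**
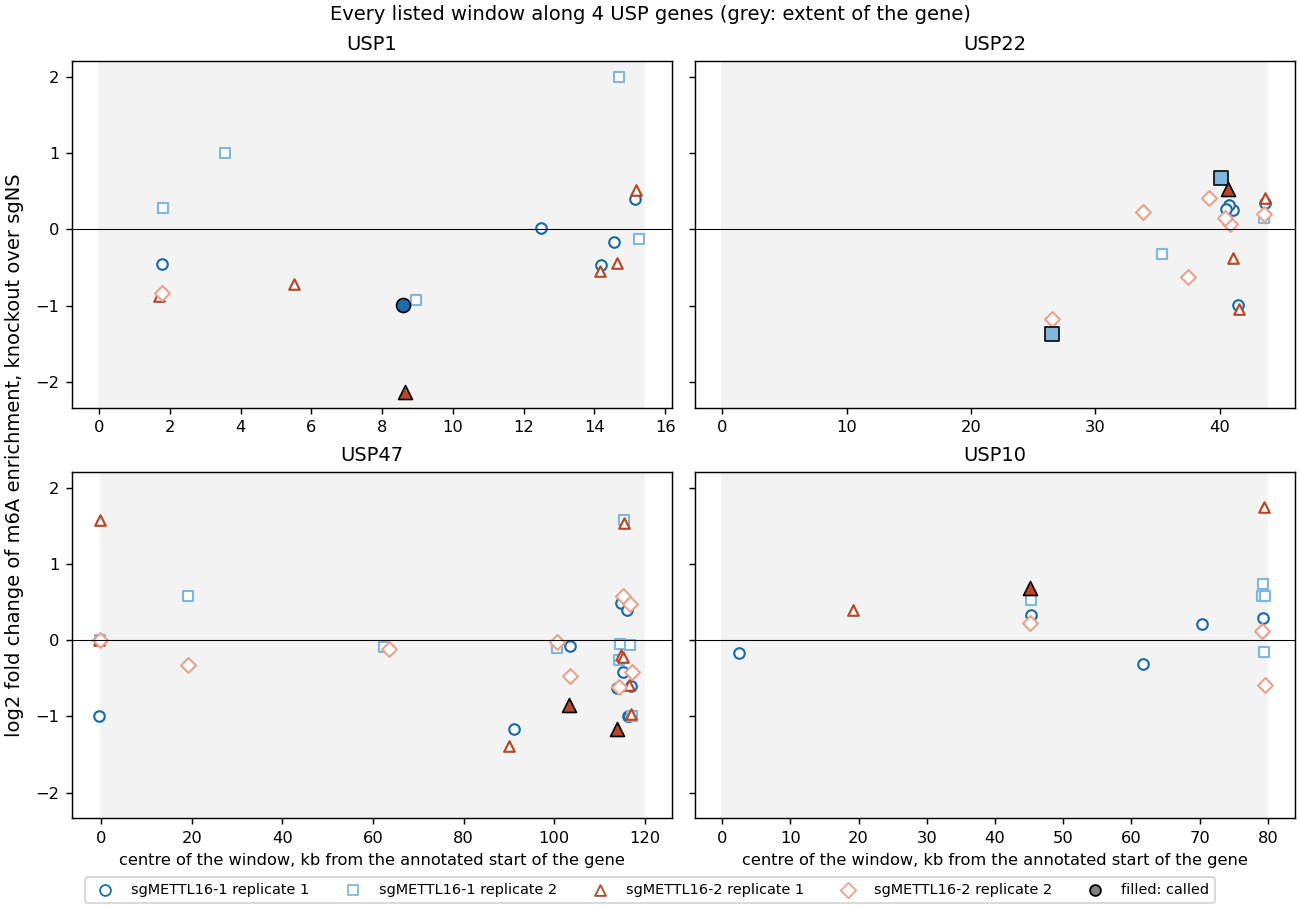
Every window listed on USP1, USP22, USP47 and USP10 in the 4 tables is placed by the distance of its centre from the annotated start of the gene (kb, across) and its log2 fold change (knockout over sgNS, upward), and filled symbols with a black edge were called. The USP1 calls sit together in the middle of the gene, at -0.99 and -2.13, and the USP22 calls lie at 2 places with opposite signs.

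USP10 was called higher in a well enriched window. It removes ubiquitin from p53 in the cytoplasm and binds the stress granule protein G3BP1. The window, chromosome 16, 84744757 to 84745534 on the plus strand, is 1 block of 778 bases, 34388 bases before the 3′ end. Its log2 fold changes, by the authors' deposited tables, were 0.33 and 0.53 with sgMETTL16-1, and 0.68 and 0.22 with sgMETTL16-2. Only the 0.68 was called (FDR = 0.00302), and the next lowest FDR in the authors' deposited tables was 0.165, for the 0.53. With two-sided p-values alone the call was kept (adjusted value 0.00828), and with the same shift as well it was lost, at 0.56 with an adjusted value of 0.068. The fold enrichment was nearly the same in all 4 of the authors' deposited tables, between 2.83 and 2.94.

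The other members of the p53, MDM2 and MYC list had no call, beside 1.74% to 7.72% of all genes per table. USP36, a nucleolar protease that stabilises MYC, had log2 fold changes of 0.08 and 0.33 with sgMETTL16-1, and 0.66 and 0.54 with sgMETTL16-2 in its best enriched windows of the authors' deposited tables, with FDRs of 0.316 or more. The window with 0.33 lay at another place on USP36 than the other 3. USP7, which protects MDM2 and p53 from degradation, stood at 0.08, -0.06, 0.22 and -0.13 in the same order in the authors' deposited tables. The USP7 windows of the replicate 1 tables and those of the replicate 2 tables were at different places, 11205 or 11235 bases before the 3′ end in replicate 1 and 1761 in replicate 2. USP37, reported to stabilise MYC and cyclin A, was enriched in 1 table, sgMETTL16-1, replicate 2, where its window had a fold enrichment of 4.39 and a log2 fold change of 2.87 (FDR = 0.607) by the authors' deposited table.

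Of the 6 listed genes of the endosome, membrane and trafficking list, 2 were called lower with sgMETTL16-2, replicate 1, where 7.72% of all genes had a call, and 0 in the other tables by the authors' FDR. They were USP8 and USP9X. USP8, which acts on cargo of the ESCRT sorting machinery, had 2 calls. Its window at chromosome 15, 50481688 to 50481958 (plus strand, 271 bases) stood at -0.26 and -0.58 (sgMETTL16-1) and -0.57 and -0.55 (sgMETTL16-2) by the authors' deposited tables. The -0.57 was called (FDR = 0.0229), while the -0.58 and the -0.55 had FDRs of 0.0891 and 0.339 in the authors' deposited tables. The windows of the 2 replicate 1 tables were enriched, those of the replicate 2 tables were not. The other USP8 window, 50439061 to 50441471, was called at -1.81 (FDR = 0.00234) without being enriched. Windows over it in the other of the authors' deposited tables had -0.50 and 0.99 with sgMETTL16-1, and 0.15 with sgMETTL16-2, replicate 2, so the direction was not repeated in the replicate 2 tables.

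USP9X, an X-linked protease known for stabilising MCL1, was called lower on 180 bases at chromosome X, 41216345 to 41216524 (plus strand). Its log2 fold changes, by the authors' deposited tables, were -0.39 and -0.80 with sgMETTL16-1, and -0.85 and -0.67 with sgMETTL16-2. Only the -0.85 was called, at an FDR of 0.0437, and the others had FDRs from 0.263 to 0.524 in the authors' deposited tables. The replicate 1 windows were enriched, and the replicate 2 windows, of 90 and 120 bases, were not.

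USP34, which stabilises axin in WNT signalling, was called lower on 451 bases that end 472 bases before its 3′ end (chromosome 2, 61187935 to 61188385, minus strand). It was the 1 call of the family within 1000 bases of a gene end. The log2 fold changes over it were, by the authors' deposited tables, -0.18 and -0.30 with sgMETTL16-1, and -0.86 and -0.47 with sgMETTL16-2, with -0.86 called (FDR = 0.011) and every window enriched. AHSA2, on the opposite strand, had a window over the same bases at -0.81 with an FDR of 0.0269 by the authors' deposited table of sgMETTL16-2, replicate 1. The library kit keeps strand, but whether the counting used it is not given in the sources used here, so reads of the 2 genes cannot be told apart. Over USP9X and USP34 together, the median log2 fold change in the authors' deposited tables was -0.27 in both tables of sgMETTL16-1 and -0.41 in both of sgMETTL16-2.

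**Figure D3:**
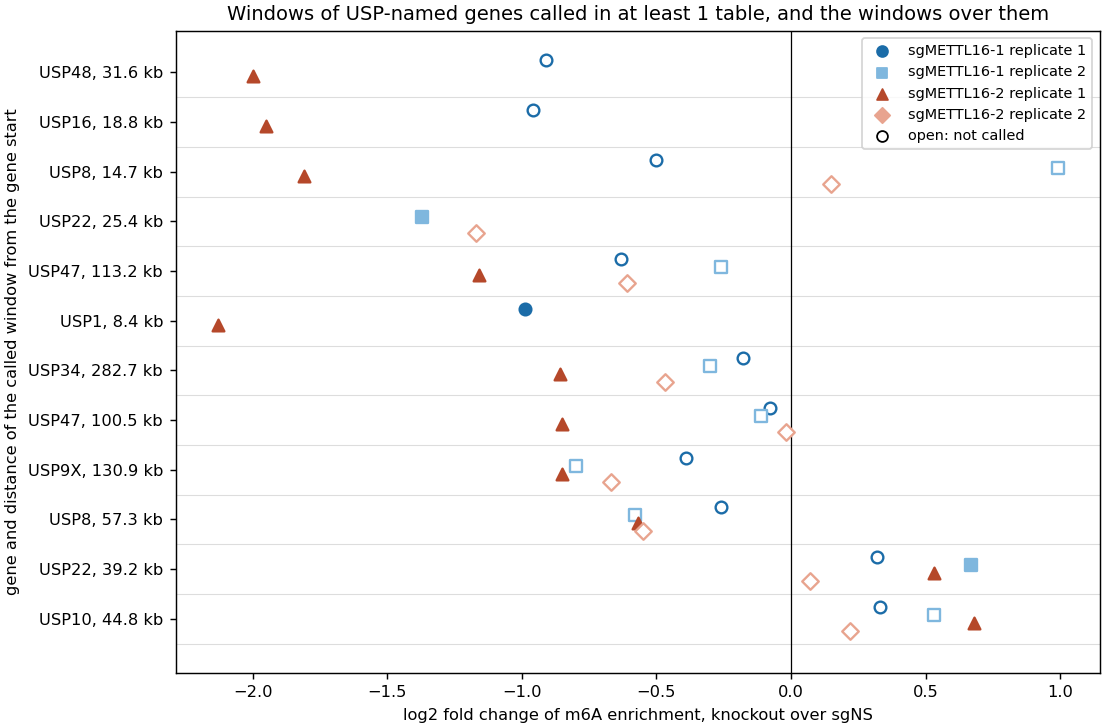
The log2 fold change (knockout over sgNS, across) of each USP window called in at least 1 table is drawn with that of the best overlapping window in the other tables, filled where called and open where not, with the distance from the gene start beside the name. Filled symbols are mostly those of sgMETTL16-2, replicate 1. A missing symbol means that the table listed no window there, as for USP1 in both replicate 2 tables.

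In each table a smaller share of USP windows than of all windows was enriched, but a larger share of USP genes than of all genes. The authors' deposited tables had 26 of 413 and 36 of 333 USP windows enriched for sgMETTL16-1 (6.3% and 10.8%, beside 8.1% and 11.9% of all windows). For sgMETTL16-2 the authors' deposited tables had 29 of 369 and 36 of 300 (7.86% and 12%, beside 10.2% and 12.3%). By gene the share in these tables was 37.3%, 48.1%, 37.7% and 37.7% of the USP genes listed, beside 30.4%, 35.9%, 34.5% and 35.8% of all genes. USP genes were longer than most and had more windows. The median length was 64.9 kb for 53 members with a RefSeq position, beside 25 kb for all genes with one. The median number of windows per gene was 6 or 7 for USP genes in the authors' deposited tables, beside 4 for all genes.

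An enriched window was listed in at least 1 table for 32 of the 54 members and in no table for 22. In all 4 tables it was listed for 14: USP4, USP7, USP8, USP9X, USP10, USP19, USP20, USP21, USP22, USP24, USP32, USP34, USP36 and USP47. USP3 had one in 3 tables. Of these 15, the genes without a call anywhere were USP3, USP4, USP7, USP19, USP20, USP21, USP24, USP32 and USP36. The shares of all genes with an enriched window in at least 1 table, or in all 4, are not given here. The counts of 32, 22 and 14 thus cannot be called high or low. For each gene, the best enriched window was taken as the one with the lowest FDR of IP over input.

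USP24, a large protease linked to DNA damage, was enriched 2244 bases before its 3′ end, or 2184 bases in 1 table. Its fold enrichment there was between 2.49 and 2.95, and its log2 fold changes, by the authors' deposited tables, were -0.20 and 0.24 with sgMETTL16-1, and 0.10 and -0.02 with sgMETTL16-2, none called. USP32, a membrane-bound protease of the Golgi and endosomes, had the highest mean fold enrichment of the 14, with 2.04 and 4.06 with sgMETTL16-1, and 2.27 and 6.08 with sgMETTL16-2 by the authors' deposited tables. Its log2 fold changes there were -0.19, -0.18, 0.20 and -0.26. USP32 and its pseudogene USP32P1 may share reads.

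USP20, which helps recycle surface receptors, stood at 0.05 and 0.26 (sgMETTL16-1) and 0.17 and 0.18 (sgMETTL16-2) in its best enriched windows by the authors' deposited tables. USP21 had -0.09 and 0.04 with sgMETTL16-1, and -0.05 and 0.61 with sgMETTL16-2 by the authors' deposited tables, with FDRs of 0.218 or more. USP4, a spliceosome-associated protease, had -0.11, 0.22, 0.18 and -0.04 in the same order in the authors' deposited tables. These genes were enriched in every table, and no difference between knockout and sgNS was called. USP19, anchored in the endoplasmic reticulum, was enriched toward its 5′ end in 3 tables, at 0.81 with sgMETTL16-2, replicate 1 (FDR = 0.114), and at -0.16 and 0.03 in the authors' deposited replicate 2 tables of sgMETTL16-1 and sgMETTL16-2. Its best window with sgMETTL16-1, replicate 1, lay elsewhere, at the 3′ end, and had -0.13 in the authors' deposited table. The best windows of USP20 also lay at different places, farther from the 3′ end with sgMETTL16-1, replicate 2, than in the other tables. USP3 had 0.10 in its enriched window of sgMETTL16-1, replicate 1, at a fold enrichment of 1.81 in the authors' deposited table. In the enriched windows of the replicate 2 tables it had -0.32 (sgMETTL16-1) and -0.31 (sgMETTL16-2), at fold enrichments of 5.92 and 5.78 in the authors' deposited tables, and windows of its antisense RNA USP3-AS1 overlapped both.

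Among enriched USP windows the median log2 fold change in the authors' deposited tables was -0.15 in replicate 1 of sgMETTL16-1, beside -0.04 for all enriched windows, and 0.10 in replicate 1 of sgMETTL16-2, beside 0.12. In the replicate 2 tables it was 0.00 for sgMETTL16-1, beside 0.13, and -0.10 for sgMETTL16-2, beside 0.14. Values were below 0 in 18 of 26 and 18 of 36 enriched USP windows for sgMETTL16-1, and in 14 of 29 and 23 of 36 for sgMETTL16-2. In the authors' deposited tables that is 69.2%, 50%, 48.3% and 63.9% of them, beside 56%, 32.7%, 36.6% and 32.5% of all enriched windows. The enriched USP windows thus held more values below 0 than all enriched windows did in each table. The tables may share control libraries, windows of 1 gene are not independent, and the difference was not tested.

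**Figure D4:**
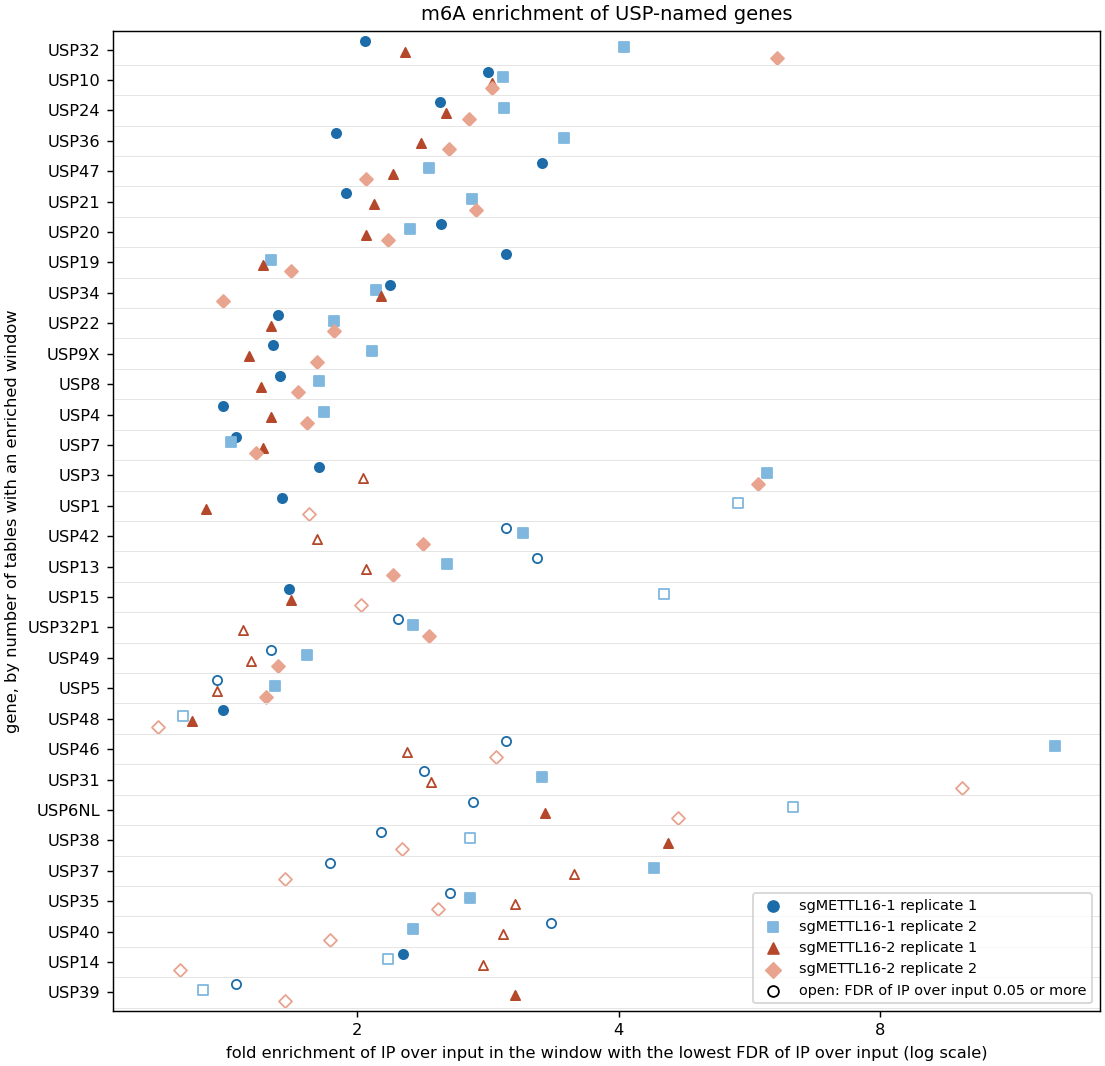
For the 32 USP-named genes with an enriched window in at least 1 table, the fold enrichment of IP over input in the window with the lowest FDR of IP over input is drawn on a log axis, with filled symbols for enriched windows and the genes ordered by how many tables hold one. The top 14 genes are filled in all 4 tables, and USP10 is the one whose values lie closest together, between 2.83 and 2.94.

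The role lists for the proteasome, the spliceosome, interferon and inflammatory signalling, and mitochondria and endoplasmic reticulum held no call in any of the authors' deposited tables. These lists are short, and between 1.74% and 7.72% of all genes had a call per table. At the proteasome and on free ubiquitin chains, all 3 of USP5, USP13 and USP14 were listed. USP14, the protease bound to the proteasome, was enriched with sgMETTL16-1, replicate 1 (fold enrichment 2.26, log2 fold change 0.27 in the authors' deposited table). USP13, a relative of USP5, was enriched in both replicate 2 tables, where its log2 fold changes were, by the authors' deposited tables, 0.34 (sgMETTL16-1) and -0.59 (sgMETTL16-2). USP5, which takes apart unanchored chains, stood at -0.17 and -0.10 in the same authors' deposited tables, enriched in both. None of these differences had an FDR under 0.65.

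On the spliceosome list, USP15 was enriched in the replicate 1 tables, with log2 fold changes of -0.33 (sgMETTL16-1) and -0.78 (sgMETTL16-2, FDR = 0.244) in the authors' deposited tables. USP39, a spliceosome component that lacks protease activity, was enriched in 1 table, at its gene start. Of the interferon and inflammatory list, USP18, the ISG15 protease, had between 0 and 3 windows per table and no enriched one. USP31 was enriched with sgMETTL16-1, replicate 2, at 3.26-fold with a log2 fold change of 0.47 in the authors' deposited table. USP38 was enriched with sgMETTL16-2, replicate 1, at 4.56-fold with a log2 fold change of -1.13 (FDR = 0.247) by the authors' deposited table. USP35, of the mitochondrial and endoplasmic reticulum list, was enriched with sgMETTL16-1, replicate 2, at 2.7-fold with 0.41 in the authors' deposited table.

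High fold enrichments often came without an FDR under 0.05. Of the 3 genes that depend on WDR48, USP1, USP12 and USP46, only USP1 had a call, in replicate 1 of both guides. Of all genes, 1.74% (sgMETTL16-1) and 7.72% (sgMETTL16-2) had a call in replicate 1. In replicate 2 none of these genes had one, beside 3.22% (sgMETTL16-1) and 3.14% (sgMETTL16-2) of all genes. USP46 had the highest fold enrichment of an enriched USP window, 12.7 with sgMETTL16-1, replicate 2, where its log2 fold change was -0.58 in the authors' deposited table. The mean fold enrichment of the best window over the authors' deposited tables was 7.52 for USP45, 5.74 for USP51, 5.73 for USP54, 4.93 for USP53, 4.51 for USP30, 3.78 for USP25 and 2.88 for USP12, and none of these 7 genes had an enriched window. USP45 trims ubiquitin from the repair factor ERCC1 and USP51 acts on histone H2A. USP30 sits on the mitochondrial outer membrane and restrains mitophagy, while USP53 and USP54 were long listed as inactive. For these genes a high ratio stood on windows that the authors' own test did not separate from input.

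In each table a smaller share of the enriched USP windows than of all enriched windows lay near a gene end. By the authors' deposited tables, 5 of 26 and 4 of 36 enriched USP windows for sgMETTL16-1 came within 1000 bases of the annotated 3′ end (19.2% and 11.1%, beside 35.4% and 31% of all enriched windows with a position). For sgMETTL16-2 the counts were 5 of 29 and 7 of 36 (17.2% and 19.4%, beside 32.8% and 30.8%). Within 1000 bases of the 5′ end the shares were 7.69%, 2.78%, 10.3% and 8.33% of enriched USP windows, beside 14.4%, 16%, 17.1% and 17.3%. Listed USP windows as a whole, enriched or not, also lay near an end less often than all windows in each table. Near the 3′ end the shares were 18.5% to 21.9%, beside 24.4% to 25.9%. Near the 5′ end they were 7.79% to 12.3%, beside 11.8% to 14.9%. USP genes were longer too (median 64.9 kb, beside 25 kb). The difference was not tested, and windows of 1 gene recur across tables. Of the 14 called windows, 7 had 2 or more blocks and 0 lay within 1000 bases of a 5′ end. Among all windows the shares per table were 27.7% to 29.8% for 2 or more blocks and 11.8% to 14.9% near the 5′ end.

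Enriched windows reached into the first 50 transcribed bases of 2 members. These starts are shown because they are the enriched USP windows whose bases are held in the RefSeq promoter table used here (GRCh38.p14), which matched 39 of the 54 members. Each line gives transcribed bases 21 to 50, 5′ to 3′, and capitals mark the bases that the window covers.
USP39, chr2:85602881-85602910, plus strand: cggagggctgtggcgtgaagACCGCTCTAA
USP19, chr3:49120774-49120803, minus strand: agcgggttgccaggGCCCGAAGAGGGCTGG
The USP39 window ran from 85602901 to 85621501 in the authors' deposited table of sgMETTL16-2, replicate 1, with a fold enrichment of 3.04, an FDR of IP over input of 0.00977 and a log2 fold change of 0.78 (FDR = 0.489). The USP19 window, from 49118085 to 49120789, had a fold enrichment of 1.68 with an FDR of 3.16e-05 by the authors' deposited table of sgMETTL16-2, replicate 2, and a log2 fold change of 0.03 (FDR = 0.65). Neither gene start was called different.

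The names that the rule caught beside the proteases gave no call, where 1.74% to 7.72% of all genes had one per table. USP6NL was enriched in 1 of the authors' deposited tables, that of sgMETTL16-2, replicate 1, at 3.29-fold with a log2 fold change of 0.48. USP32P1 was enriched in both replicate 2 tables, at -0.70 for sgMETTL16-1 and -0.55 for sgMETTL16-2 in the authors' deposited tables. The antisense RNAs USP2-AS1, USP3-AS1, USP12-AS2, USP27X-AS1, USP30-AS1 and USP46-AS1 had no enriched window, and between 0 and 5 windows each per table. USP22 and USP27X are near copies that may share reads, and USP27X had neither an enriched nor a called window. Windows of another gene overlapped between 4 and 8 USP windows per table.

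A list of deubiquitinases of other families and their relatives was set beside the USP genes. Each table listed 34 of the 42 names on that list, which holds both an older and a newer name for some genes. A call was made for 2, both lower in the authors' deposited table of sgMETTL16-2, replicate 1, where 7.72% of all genes had one. MYSM1, a histone H2A deubiquitinase, stood at -1.21 (FDR = 0.0195) in an enriched window of that authors' deposited table. BRCC3, which cuts K63-linked chains in the BRCA1-A complex, stood at -1.67 (FDR = 0.0245) in a window that was not enriched in that authors' deposited table. The 8 USP cofactors were all listed and had no call, beside 1.74% to 7.72% of all genes per table.

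RPS27A, which makes ubiquitin fused to a ribosomal protein, was lower with sgMETTL16-1, replicate 2, at -0.33 (FDR = 0.0389) in an enriched window of the authors' deposited table. That change was smaller than those of the called USP windows.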

How the data were processed

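For the NOMO-1 input and m6A IP libraries the submitters' processing notes name the aligner STAR, without a version, and the build GRCh38. The sources used here do not name the peak caller. Per the file headers, the deposited columns are the difference between knockout and sgNS as a log2 fold change, its FDR as log10, the fold enrichment of IP over input (a ratio), and log10 p-values and FDRs, used as scores. No value per library was used, so the authors' FDRs were taken as deposited and no model was fitted. The number in a table's label was read as the replicate number. Windows of 2 tables were matched by gene, strand and at least 0.5 of the bases of each.

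Members and gene lists were chosen with earlier results of these data known. Named were all called members, the 2 members of each role list with the highest mean fold enrichment of their best window, all names that are not USP proteases, and the called genes of the other lists, some of which are not reported here. USP4, USP5, USP7, USP18, USP19, USP20, USP21, USP24, USP36, USP38 and USP49 were named after their values were seen. Gene ends came from RefSeq (GRCh38.p14), with coordinates counted from 1. Motif and protein searches were not run, since no genome or protein table was used here. Steps used Python 3.11.15, pandas 2.3.3 and numpy 2.4.6, and were tested on simulated data. Alternatives were stricter limits (FDR 0.01, log2 fold change of 1 or more in size, fold enrichment of 2 or more), overlaps of 0.2 and 0.8, enriched windows alone, identical rows once, two-sided p-values, a shift by the enriched median and leaving out a replicate table. Values after the shift are two-sided p-values from a normal approximation with a standard error taken from the deposited p-value, adjusted by Benjamini-Hochberg over the table. Benjamini-Hochberg adjustment of the deposited p-values was added after seeing the data.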

Additional observations from a re-analysis of the deposited data

How the results depend on the processing

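No paired analysis was possible because the tables give the authors' comparisons without values per library. The shift, by 0.14 or less in size, was the only alternative that moves log2 fold changes. The called changes were 0.53 or more in size, so no alternative could reverse a direction. With sgMETTL16-2, replicate 1, the 9 windows called lower became 4 at an FDR of 0.01, 5 at a log2 fold change of 1 or more in size, 4 at a fold enrichment of at least 2, 5 among enriched windows alone and 5 with two-sided p-values. Its 2 called higher became 1, 0 and 1 under the first 3 of these, 1 with two-sided p-values and 0 after the shift. Its 9 genes with a call became 4, 5 and 4 under the first 3 and 5 with two-sided p-values. With sgMETTL16-1, replicate 1, the 1 window called lower and the 1 gene became 0 at a log2 fold change of 1 or more in size or a fold enrichment of at least 2. In replicate 2 of that guide the 1 lower window became 0 at a fold enrichment of at least 2 or among enriched windows alone, the 1 higher window became 0 under the fold change or the fold enrichment limit, and the gene count became 0 under the fold enrichment limit. After the shift by the enriched median, which also makes p-values two-sided, USP10 stood at 0.56 with an adjusted p of 0.068, and USP22 with sgMETTL16-2 at 0.40 with 0.358. USP16, at -2.08 with 0.0611, was lost without the shift too. These were the 3 calls lost after the shift, and the other 11 were kept. USP48, USP9X and the USP8 window that were lost with two-sided p-values alone were among those kept. Two-sided p-values were adjusted by Benjamini-Hochberg, which on the deposited p-values alone left 12 of the 14 calls (USP16 and USP9X were lost), so those alternatives change the adjustment too. With 1 replicate table left out, calls in the other ranged from 1 to 2 for sgMETTL16-1 and from 0 to 11 for sgMETTL16-2.

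Enriched USP windows numbered 17 and 11 (at an FDR of IP over input of 0.01 and at a fold enrichment of at least 2) for sgMETTL16-1, replicate 1, 22 and 21 for its replicate 2, and 20 and 15 for sgMETTL16-2, replicate 2, while its replicate 1 had 15 at a fold enrichment of at least 2. Within 500 bases of the 3′ end lay 11.7%, 12.9%, 13.6% and 12.3% of USP windows. In replicate 2 of sgMETTL16-1, enriched windows alone gave 11.1% near the 3′ end and 2.78% near the 5′ end, and in replicate 2 of sgMETTL16-2 8.33% near the 5′ end. Depth is unknown, so how far it limits short windows was not tested.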
